A study of Homo sapiens with 4 samples.

Results

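Activin and TGF-beta are secreted dimers of one ligand superfamily. They bind paired serine/threonine kinase receptors on the cell surface, which phosphorylate the signalling SMAD proteins. The SMADs then enter the nucleus and switch on target genes, among them the inhibitory SMADs that dampen the same receptors. In epithelial tumours the pathway is known both for halting proliferation and for promoting invasion and mesenchymal traits.

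The 10 genes described here are the activin subunit genes INHBA and INHBB, the ligand genes TGFB1 and TGFB2, the receptor genes TGFBR1 and TGFBR2, the inhibitory SMAD genes SMAD6 and SMAD7, the activin antagonist gene FST, and the SMAD corepressor gene SKIL. They are 10 of 61860 genes in the count table, and all 10 were found in it. The set was chosen by the fold change of INHBA, which was far lower after treatment in these same libraries, so the values of the 10 genes are given as a description, without a test.

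Per the labels, the RNA came from HT1376, an established human bladder cancer line. Both groups were kept for 48 h, one (n = 2) with the control agent labelled WFI and the other (n = 2) with 1 nM enfortumab vedotin (EV). EV is an antibody coupled to a microtubule poison, directed against the surface protein nectin-4. The labels do not say whether replicates were separate cultures, so any p-value reflects only how far these libraries differ, and that spread may be technical.

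Library totals ran from 19368791 to 20727175 counts. Of 19 urothelial and epithelial marker genes, KRT20 had 0 counts in all 4 libraries and CDH1 had 0 and 1 in WFI and 9 and 7 in EV. KRT19 had 1 and 6 counts in WFI and 0 and 1 in EV, and GRHL2 had 0 in both WFI libraries and 23 and 4 in EV. KRT5, KRT14, TP63, UPK1B and UPK3A also had 0 counts in both WFI libraries. EPCAM, UPK1A, UPK2 and GATA3 averaged 0.216, 0.0720, 0.241 and 0.841 CPM (counts scaled to library size) in WFI. In EV, KRT5 had 97 and 134 counts, TP63 had 30 and 27, and GATA3 averaged 10.1 CPM. Most of the 19 were thus at or near 0 in WFI, and the identity of the line was not checked here. The summed level of those 19 was 1612 to 1630 CPM in WFI and 3462 to 3500 in EV, most of it from keratins. In WFI, KRT8, KRT7 and KRT18 averaged 733, 436 and 387 CPM, PPARG 36.2, FOXA1 21.6 and ELF3 6.02 CPM. Of the 19, 8 did not pass the filter on low counts used below. The sum over 10 fibroblast markers was 13.5 to 13.8 CPM in WFI and 13.2 to 16.5 in EV. Over 10 leukocyte markers it was 1.74 to 2.82 CPM in WFI and 34.9 to 37.4 in EV, of which ITGAM made up 26.0 CPM, while the defining marker PTPRC had 1 and 3 counts in WFI and 4 and 9 in EV. The part of these markers in the results below was not tested.

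The 2 genes that stood farthest from no change were INHBA, which was 7.87-fold lower in EV, and SMAD7, which was 7.89-fold higher. SMAD6 was 3.97-fold higher. Both receptor genes were lower, by 1.72-fold for TGFBR1 and 1.58-fold for TGFBR2. The other 5 genes differed by less than 1.5-fold. All levels are CPM with TMM scaling, so they are relative to the other RNA of a library. Fewer cells of a type and less RNA per cell cannot be told apart in such bulk samples.

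**Figure D1:**
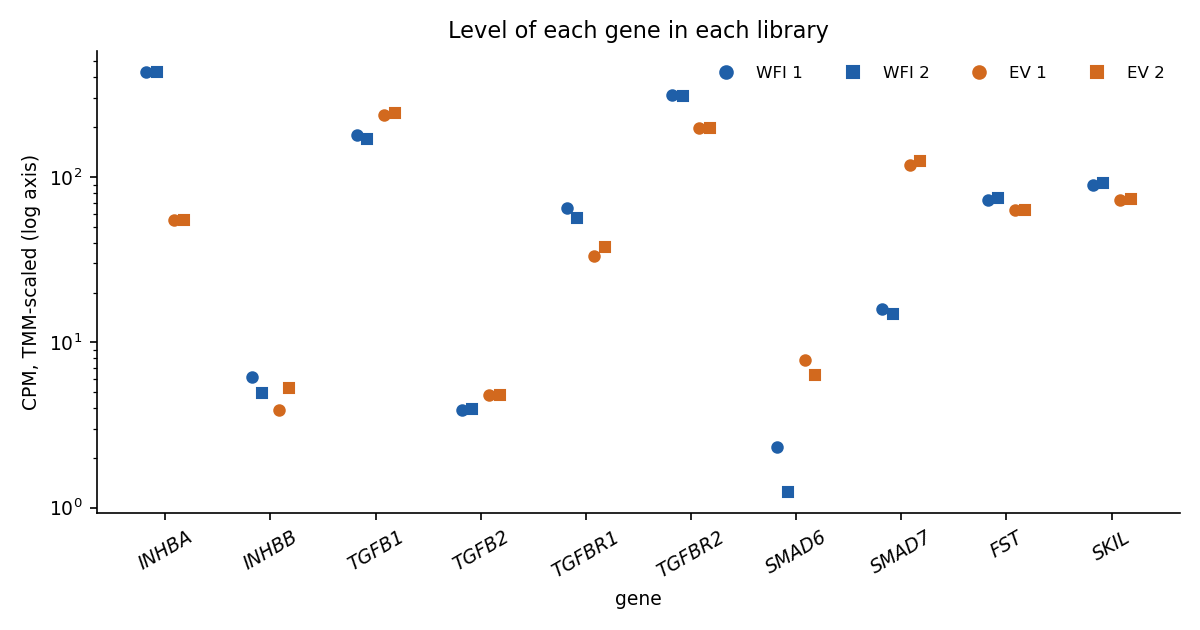
Level of each of the 10 genes in each of the 4 libraries, in CPM on a log axis, with WFI in blue, EV in orange, circles for replicate 1 and squares for replicate 2. The EV points of INHBA average 54.9 CPM, under WFI points at 432 CPM, SMAD6 and SMAD7 lie higher in EV, and the INHBB points of both groups overlap.

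INHBA encodes the beta A subunit of activin A and lies on the minus strand of hg38 chromosome 7, from 41667168 to 41705834. It had 8929 and 9046 counts in WFI and 1002 and 1060 in EV. Its level was 432 ± 0.0555 CPM in WFI and 54.9 ± 0.236 CPM in EV (SD, n = 2). The replicates of each group were almost equal and the groups were far apart. The log2 fold change was -2.98 (SE 0.04), and 253 of the 17465 genes tested had a lower one. INHBA-AS1, annotated on the opposite strand over part of the gene, had 41 and 47 counts in WFI and 5 and 22 in EV. The library kit was directional, but the strand setting of the counting is not given in the sources used here.

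INHBB encodes the beta B subunit of activin B (chromosome 2, 120346143 to 120351808, plus strand). Its counts were 127 and 103 in WFI and 71 and 102 in EV, or 6.15 and 4.92 against 3.90 and 5.27 CPM. One EV library lay between the controls, so the groups overlapped. The log2 fold change of -0.27 had an SE of 0.25, about as large as the difference itself. It ran from -0.52 to -0.08 when each library was left out in turn and was -0.75 with a trend in gene length and GC content removed. INHBA was 37.1 and 46.4 times as abundant as INHBB per kilobase of transcript in WFI. In EV it was 7.46 and 5.49 times as abundant.

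TGFB1, the gene of the most widely expressed TGF-beta ligand (chromosome 19, 41301587 to 41353911, minus strand), stood at 178 and 170 CPM in WFI and 238 and 242 CPM in EV. EV was higher in both libraries, with a log2 fold change of 0.46 (SE 0.04). The difference turned to -0.06 once the trend with length and GC content was removed. That removal took the median of all genes from 0.02 to -0.13, so TGFB1 then lay near 0 and above that median. HNRNPUL1, a gene that overlaps it on the opposite strand, stood at 246 and 230 CPM in WFI and 203 and 197 CPM in EV. TGFB2, a second ligand gene of the family (chromosome 1, 218346235 to 218444619, plus strand), was scarce. It had 81 and 83 counts in WFI and 87 and 93 in EV, or 3.92 and 3.97 against 4.782 and 4.803 CPM. The groups did not overlap, yet the log2 fold change of 0.28 had an SE of 0.24. Counting error alone gave a 95% interval of 0.978 to 1.51 for the ratio of EV to WFI (exact binomial), which includes no difference. TGFB1 was 78.4 to 83.0 times as abundant as TGFB2 per kilobase in WFI and 90.7 to 91.9 times in EV.

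TGFBR2 encodes the receptor that binds TGF-beta first (chromosome 3, 30606502 to 30694142, plus strand). Its level was 312 and 307 CPM in WFI and 196 in both EV libraries, a log2 fold change of -0.66 (SE 0.04). TGFBR1 encodes the partner kinase that phosphorylates SMAD2 and SMAD3 (chromosome 9, 99104038 to 99154192, plus strand). Its level was 65.2 and 56.8 CPM in WFI and 33.2 and 37.5 CPM in EV, a log2 fold change of -0.78 (SE 0.09). Both receptor genes were lower in EV with no overlap between groups. TGFBR2 was the more abundant per kilobase in every library, by 6.75 and 7.61 times in WFI and 8.34 and 7.38 times in EV, so their ratio in 1 EV library lay within the range of the controls.

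SMAD7 and SMAD6 encode inhibitory SMADs. SMAD7 blocks TGF-beta and activin receptors, and SMAD6 acts mainly on the BMP branch. SMAD7 lies on the minus strand of chromosome 18, from 48919853 to 48952052. Its counts were 329 and 309 in WFI and 2148 and 2404 in EV, or 15.9 and 14.8 against 118 and 124 CPM. Its log2 fold change was 2.98 (SE 0.07). SMAD6 lies on the plus strand of chromosome 15, from 66702228 to 66782848. Its counts were 48 and 26 in WFI and 142 and 123 in EV. Its level was 2.32 and 1.24 CPM in WFI and 7.81 and 6.35 CPM in EV, a log2 fold change of 1.99 (SE 0.32). Both genes were higher in both EV libraries. The fold of SMAD6 is the less precise of the pair, since its WFI replicates lay far apart for their size, with a counting interval of 3.05 to 5.20 for the ratio (95%, exact binomial). SMAD6 also overlaps the locus AC013564.1 on its own strand, so its reads may be shared.

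FST encodes follistatin, a secreted protein that binds activin and keeps it from its receptors (chromosome 5, 53480409 to 53487134, plus strand). Its level was 72.3 and 74.7 CPM in WFI and 63.2 and 62.7 CPM in EV, a log2 fold change of -0.22 (SE 0.06), or -0.47 with the length and GC trend removed. FST was thus slightly lower in both EV libraries while INHBA was far lower. Per kilobase, FST stood at 0.400 and 0.413 of INHBA in WFI and at 2.74 of INHBA in both EV libraries. The antagonist transcript was the scarcer of the pair in both controls and the more abundant in both EV libraries. SKIL encodes SnoN, a corepressor that holds SMAD complexes inactive (chromosome 3, 170357678 to 170396835, plus strand). It stood at 89.7 and 91.5 CPM in WFI and 72.9 and 74.1 CPM in EV. Its log2 fold change was -0.30 (SE 0.05), and this turned to 0.29 once the trend with length and GC content was removed.

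**Figure D2:**
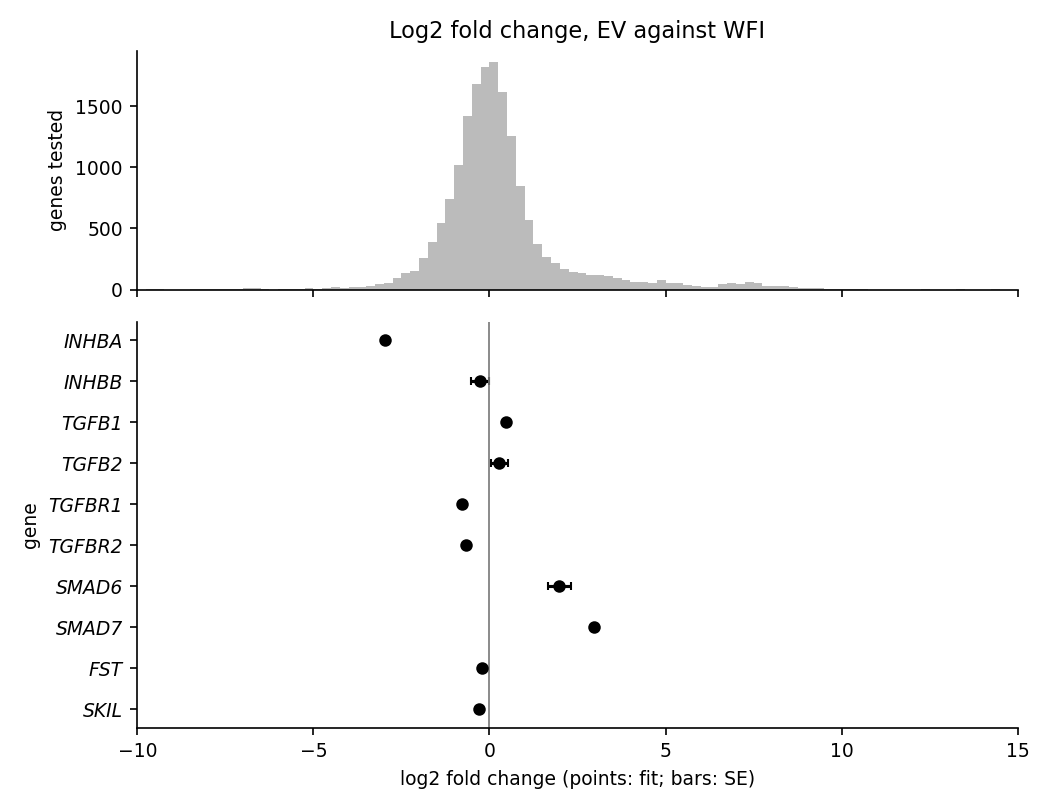
Lower panel, log2 fold change of EV against WFI for the 10 genes, with bars for the SE of the edgeR fit. The histogram above shows the same quantity for the 17465 genes tested, whose median is 0.02, and INHBA at -2.98 and SMAD7 at 2.98 lie in its opposite flanks.

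All 10 genes passed the filter on low counts, and each had at least 10 counts in 1 or more libraries of both groups. At an edgeR adjusted p below 0.05, 3 of the 10 would be called higher (TGFB1, SMAD6, SMAD7), 5 lower (INHBA, TGFBR1, TGFBR2, FST, SKIL) and 2 neither (INHBB, TGFB2), with the signs of TGFB1 and SKIL turned once the length and GC trend is removed. Over all 17465 genes tested, 66% were called, 34.5% higher and 31.5% lower. Since this contrast chose the set, nothing is read from the count. The median log2 fold change was -0.25 over the 10 genes and 0.02 over all genes tested.

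Ordered by level per kilobase of the principal transcript, the controls ran from INHBA (71.3 CPM per kb) through TGFBR2 (66.9), TGFB1 (63.0), FST (28.97), SKIL (12.6), TGFBR1 (9.36), SMAD7 (3.47), INHBB (1.73) and TGFB2 (0.781) to SMAD6 (0.465). In EV the order was TGFB1 (86.6), TGFBR2 (42.5), SMAD7 (27.4), FST (24.8), SKIL (10.2), INHBA (9.06), TGFBR1 (5.43), SMAD6 (1.85), INHBB (1.43) and TGFB2 (0.948). By this length INHBA went from rank 1 to rank 6 and SMAD7 from rank 7 to rank 3. The replicate ranges of neighbours in either order did not overlap, with only 2 replicates behind each range. The ranks depend on the length used. Merged exons span 8302 bases for INHBA, 4704 for TGFBR2 and 3238 for TGFB1. Per kilobase of merged exon, INHBA would lie below TGFBR2 and TGFB1 in the controls.

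The contrast as a whole moved with gene length. Among protein coding genes of at least 1 CPM, the median log2 fold change was 0.51 in the 10% with the shortest merged exons and -0.67 in the 10% with the longest. INHBA, with 8302 bases of merged exon, falls in the eighth of these 10 classes, whose median was -0.22, and 2 of its 1232 genes had a lower fold change. SMAD6, with 8563 bases, lies in the class with a median of -0.42, where 1194 of 1232 genes were lower than it. For SMAD7, 1187 of 1232 genes of its class were lower. With a trend in length and GC content removed, the log2 fold changes were -2.63 for INHBA and 2.63 for SMAD7.

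**Figure D3:**
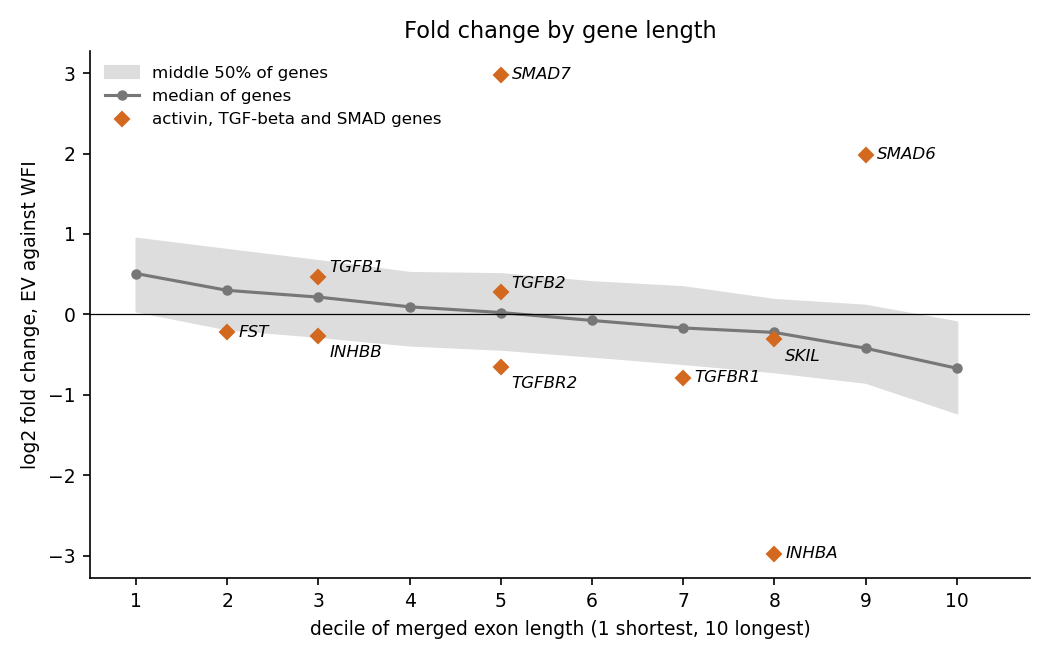
Log2 fold change of EV against WFI by class of merged exon length, from 1 (shortest) to 10 (longest). The line is the median and the band the middle 50% of 1232 or 1233 protein coding genes per class, and the diamonds are the 10 genes, of which INHBA, SMAD6 and SMAD7 stand well outside the band.

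The promoter letters of INHBA and SMAD6 are shown because these genes lay on opposite sides of no change and their windows differ in base composition and in 1 rare SMAD motif. Each is the first RefSeq window of the gene, the 250 bases before the transcript start, on build GRCh38.p14. INHBA is chr7:41703091-41703340, minus strand, and SMAD6 is chr15:66701986-66702235, plus strand. The INHBA window lies inside the longer GENCODE gene span, with 18 bases in an annotated exon. The SMAD6 window has 8 such bases. Capitals mark a match to any motif searched.
INHBA: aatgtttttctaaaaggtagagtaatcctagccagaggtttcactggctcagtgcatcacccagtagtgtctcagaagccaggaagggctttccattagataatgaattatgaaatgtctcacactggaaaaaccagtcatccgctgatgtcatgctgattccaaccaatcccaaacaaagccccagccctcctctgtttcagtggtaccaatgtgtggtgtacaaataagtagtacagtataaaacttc
SMAD6: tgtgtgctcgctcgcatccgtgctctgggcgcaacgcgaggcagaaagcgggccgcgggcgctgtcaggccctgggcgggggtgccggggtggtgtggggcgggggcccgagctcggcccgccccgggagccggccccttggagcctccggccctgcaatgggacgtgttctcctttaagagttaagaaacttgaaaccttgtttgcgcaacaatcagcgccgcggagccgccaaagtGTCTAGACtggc

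The INHBA window has 42.8% G and C and held none of the 7 motifs searched on both strands. The SMAD6 window has 68.0% G and C and held the SMAD palindrome GTCTAGAC, found in 48 of 27305 first windows of the same length (0.176%). The short SMAD box CAGAC was in the windows of TGFB2, TGFBR1, SMAD7 and SKIL, and in 37.8% of all windows. The BMP SMAD element GGCGCC was in those of INHBB and SKIL (16.1% of all), the AP-1 site TGANTCA in that of FST (6.60%), and the cyclic AMP element TGACGTCA in that of SKIL (1.77%). The heat shock element (0.439% of all windows) and the CArG box (1.14%) were in none of the 10. All 250 bases of the SMAD7 window and 220 of the FST window lie in exons that GENCODE annotates for those genes. The SMAD7 matches thus lie in annotated exon, and that of FST may. A match describes letters and is not a site of binding.

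The genes most like INHBA were sought by the distance between log2 CPM profiles, each centred on its own mean, over the 4 libraries. Among 9478 named genes of at least 10 CPM the nearest was PAX8-AS1, a noncoding RNA (distance 0.0351), with 115 and 119 CPM in WFI and 15.01 and 14.98 CPM in EV. PDGFB, a platelet-derived growth factor gene, followed at 0.0588, with 119 and 121 CPM in WFI and 15.6 and 15.8 CPM in EV. KMT2A, a histone methyltransferase gene, was at 0.0946, the large scaffold gene AHNAK2 at 0.101, and the Notch coactivator gene MAML2 at 0.102. With 4 libraries in 2 groups, the distance mostly reflects a shared size of the group difference.

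The wider pathway was described from 7 lists of other genes, tested in the same fit. The lists were chosen with earlier results of these data known, so their counts are given as a description. The counts are read against the 34.5% of all genes that were called higher and the 31.5% called lower. With the length and GC trend removed, 4814 of 17073 genes tested were called higher and 6338 lower, at a median log2 fold change of -0.13. Counts from that fit are read against these. Several sizes depend on the trend in length and GC content, and values with it removed are given for some genes only.

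Of 29 other ligand genes of the superfamily, 15 entered the test. Of these 6 rose, 2 fell and 7 were not called. BMP7 and GDF9, 2 of the 6, had fewer than 10 counts in both controls and entered the test through their EV counts alone. BMP8A, also among the 6, had 6 and 10 counts in WFI and 155 and 126 in EV, and likewise entered through its EV counts. Of the 11 ligand genes with at least 10 counts in 1 or more libraries of both groups, 4 rose, BMP8A among them. GDF15, a stress-responsive ligand, fell from 84.9 ± 1.75 to 13.4 ± 1.26 CPM (-2.66 on the log2 scale with SE 0.09, adjusted p = 5.82e-10 by edgeR). AMH, the anti-Müllerian hormone gene, rose from 7.19 ± 0.167 to 27.2 ± 1.59 CPM (1.92 on the log2 scale with SE 0.13, adjusted p = 1.70e-07 by edgeR). With the trend removed, the log2 values were -3.28 for GDF15 and 1.23 for AMH. INHBE, a further activin subunit gene chosen after its values were seen, had 66 and 77 counts in WFI and 14 and 18 in EV, and fell by 2.01 on the log2 scale (edgeR adjusted p = 0.000622).

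Of 15 other receptors and coreceptors, 11 entered the test. Of these 5 fell, 3 rose and 3 were not called. ACVR2B, a receptor that binds activin, fell from 16.9 ± 0.323 to 4.94 ± 0.611 CPM (-1.77 on the log2 scale with SE 0.16, adjusted p = 2.27e-06 by edgeR). ACVR1B, the partner kinase of the activin receptor, fell from 42.8 ± 0.490 to 18.01 ± 0.643 CPM (-1.25 on the log2 scale with SE 0.09, adjusted p = 5.52e-07 by edgeR). ACVR2A, the other activin-binding receptor, was chosen after its values were seen and rose from 9.21 ± 1.11 to 14.8 ± 1.74 CPM (edgeR adjusted p = 0.00271). The genes for the INHBA ligand subunit and for its partner kinase were thus both lower, while the receptors that bind activin went both ways. The BMP receptor gene BMPR2 fell from 133 ± 1.11 to 53.7 ± 2.25 CPM (edgeR adjusted p = 5.15e-09), by 1.30 on the log2 scale or 0.74 with the trend removed. BAMBI, a decoy receptor that inhibits TGF-beta and activin signalling, rose from 2.38 ± 0.736 to 20.7 ± 3.15 CPM (3.12 on the log2 scale with SE 0.21, adjusted p = 2.59e-07 by edgeR).

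All 6 signalling SMAD genes passed the test, 4 lower and 2 higher. SMAD3, which carries TGF-beta and activin signals, fell from 233 ± 3.75 to 70.8 ± 3.31 CPM (-1.72 on the log2 scale with SE 0.05, adjusted p = 1.93e-10 by edgeR). Its partner SMAD2 was at -0.37 and the shared SMAD4 at -0.38 on the log2 scale (edgeR adjusted p = 0.000208 and 0.00149), but with the length and GC trend removed SMAD2 turned to 0.18 and was called higher (edgeR adjusted p = 0.0448), and SMAD4 turned to 0.09 (edgeR adjusted p = 0.341). In the BMP branch SMAD5 fell by 0.81, or by 0.32 with the trend removed (edgeR adjusted p = 5.56e-07 and 0.000711). SMAD1 rose by 0.62 and SMAD9 by 1.44 on the log2 scale (edgeR adjusted p = 0.000754 and 0.000312). With the trend removed, 2 of the 6 were called lower and 3 higher, so the balance of the list turned. Over all genes tested in that fit, 6338 were called lower and 4814 higher.

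Of 18 genes that activate ligands or block them outside the cell, 14 entered the test. Of these 8 fell, 4 rose and 2 were not called. LRRC32 and CHRD, among the 4, had fewer than 10 counts in both controls. Of the 12 with at least 10 counts in 1 or more libraries of both groups, 2 rose and 8 fell. The integrin genes ITGB8 and ITGAV, whose proteins release latent TGF-beta, fell from 66.7 ± 2.88 to 21.7 ± 2.02 and from 251 ± 3.09 to 132 ± 10.0 CPM (edgeR adjusted p = 4.41e-08 and 4.63e-08). Their log2 values were -1.62 and -0.92, or -0.999 and -0.54 with the trend removed. THBS1, a secreted activator of latent TGF-beta, rose from 116 ± 1.53 to 208 ± 12.5 CPM (edgeR adjusted p = 8.64e-08). FSTL3, a relative of FST that also binds activin, rose from 94.2 ± 0.573 to 155 ± 3.80 CPM (0.72 on the log2 scale with SE 0.05, adjusted p = 1.92e-07 by edgeR). With the trend removed FSTL3 was at 0.17 (edgeR adjusted p = 0.00608), beside -0.47 for FST. The count of higher genes was 2 without WFI replicate 2.

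Of 20 intracellular regulators of SMAD signalling, 19 entered the test. Of these 11 fell, 4 rose and 4 were not called. TRIM33, a ubiquitin ligase that acts on SMAD4, fell from 90.8 ± 2.58 to 46.4 ± 6.02 CPM (edgeR adjusted p = 1.57e-06), by 0.97 on the log2 scale or 0.54 with the trend removed. The ubiquitin ligase gene WWP1 fell from 75.4 ± 2.35 to 38.8 ± 1.00 CPM (edgeR adjusted p = 3.72e-07). ZFYVE9, an anchor that presents SMADs to the receptor, fell by 0.91 on the log2 scale (edgeR adjusted p = 4.79e-06), and STRAP, a receptor-associated protein that works with SMAD7, rose by 0.91 (edgeR adjusted p = 6.43e-09). With the length and GC trend removed, 7 were higher.

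**Figure D4:**
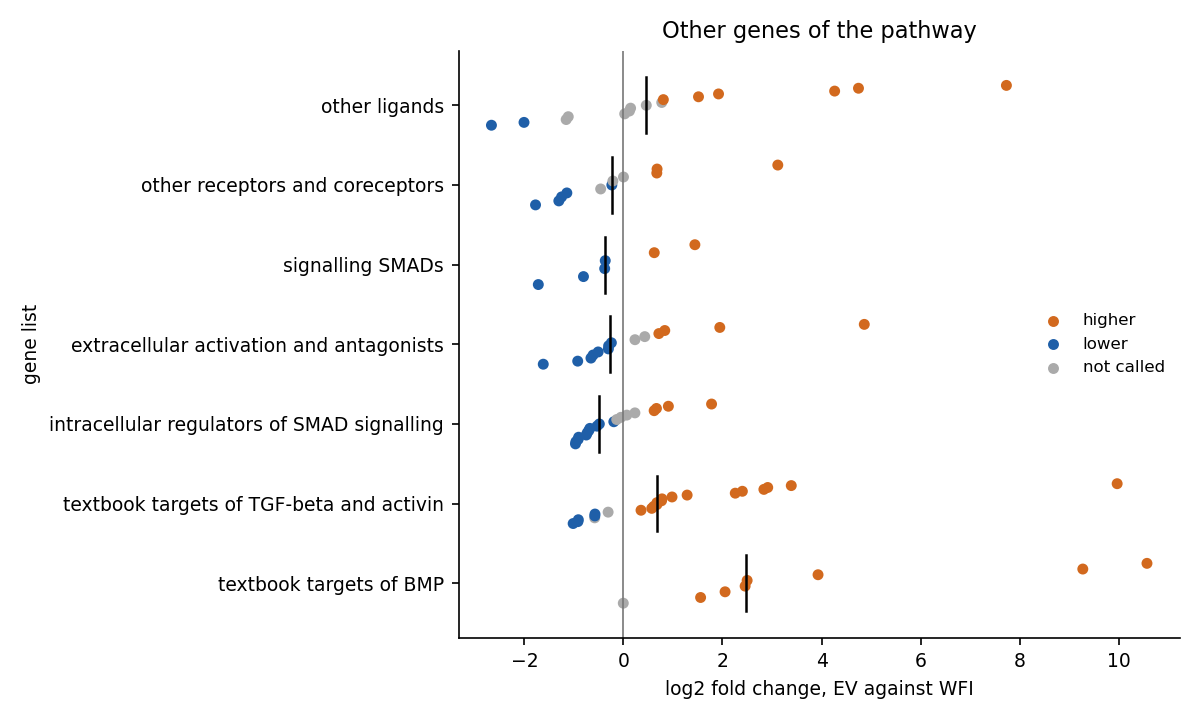
Log2 fold change of EV against WFI for the tested genes of each of the 7 lists, 1 point per gene, orange where called higher, blue where called lower and grey where not called, with a bar at the median. The 2 target lists at the bottom lie mostly above 0, in the fit without removal of the length and GC trend.

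Of 24 textbook targets of TGF-beta and activin, 22 entered the test. Of these 15 rose, 5 fell and 2 were not called. That is 68.2% higher, beside 34.5% of all genes, and the median log2 fold change was 0.68 against 0.02. Among all genes with at least 10 counts in 1 or more libraries of both groups, 29.8% were called higher. This list was chosen with earlier results of these data known, so its share is a description and not support. Several of the 22 are also induced by other signals. KLF10 and JUNB, transcription factors induced early by TGF-beta, rose from 99.99 ± 4.67 to 754 ± 3.10 and from 94.8 ± 0.0580 to 677 ± 30.9 CPM (edgeR adjusted p = 7.17e-13 and 1.09e-12). CCN2, a matricellular target, rose by 3.39 and the repressor gene SNAI1 by 9.97 on the log2 scale (edgeR adjusted p = 6.69e-14 and 1.37e-14). SNAI1 had 19 and 27 counts in WFI and 19741 and 22138 in EV, so the size of its fold rests on few control counts. With the trend removed the log2 values were 2.18 for JUNB and 9.35 for SNAI1. The 5 that fell were KLF11, HMGA2, COL4A1, FN1 and LIF, chosen here because of their count, with log2 fold changes from -0.57 for COL4A1 to -1.01 for LIF. With the trend removed they ran from -0.33 for HMGA2 to -1.44 for LIF.

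Of 10 textbook BMP targets, 8 entered the test. Of these 7 rose, 0 fell and ID1 was not called (edgeR adjusted p = 0.978, log2 fold change -0.00). With the length and GC trend removed ID1 was called lower, at -0.67 (edgeR adjusted p = 4.40e-06). DLX5, ATOH8 and HAMP, 3 of the 7, had fewer than 10 counts in both controls. Of the 5 with at least 10 counts in 1 or more libraries of both groups, 4 rose, beside 29.8% of all such genes. This list too was chosen with earlier results known, so its share is a description. The homeobox gene MSX1 rose from 35.1 ± 1.18 to 193 ± 6.58 CPM, the Notch and BMP target HEY1 from 8.76 ± 0.556 to 36.3 ± 3.33 CPM and the helix-loop-helix inhibitor ID3 from 11.1 ± 0.237 to 32.6 ± 0.608 CPM (edgeR adjusted p = 3.29e-11, 7.71e-08 and 2.95e-07). The log2 values of MSX1 and ID3 were 2.46 and 1.56, or 1.87 and 0.95 with the trend removed. ID2, a close relative of ID3, rose by 10.57 on the log2 scale (edgeR adjusted p = 8.23e-15). ID2 had 17 and 13 counts in WFI and 20178 and 21366 in EV, so the size of its fold also rests on few control counts. ID1, the target most often used to read BMP activity, stood at 72.8 CPM in WFI and 72.7 CPM in EV.

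**Figure D5:**
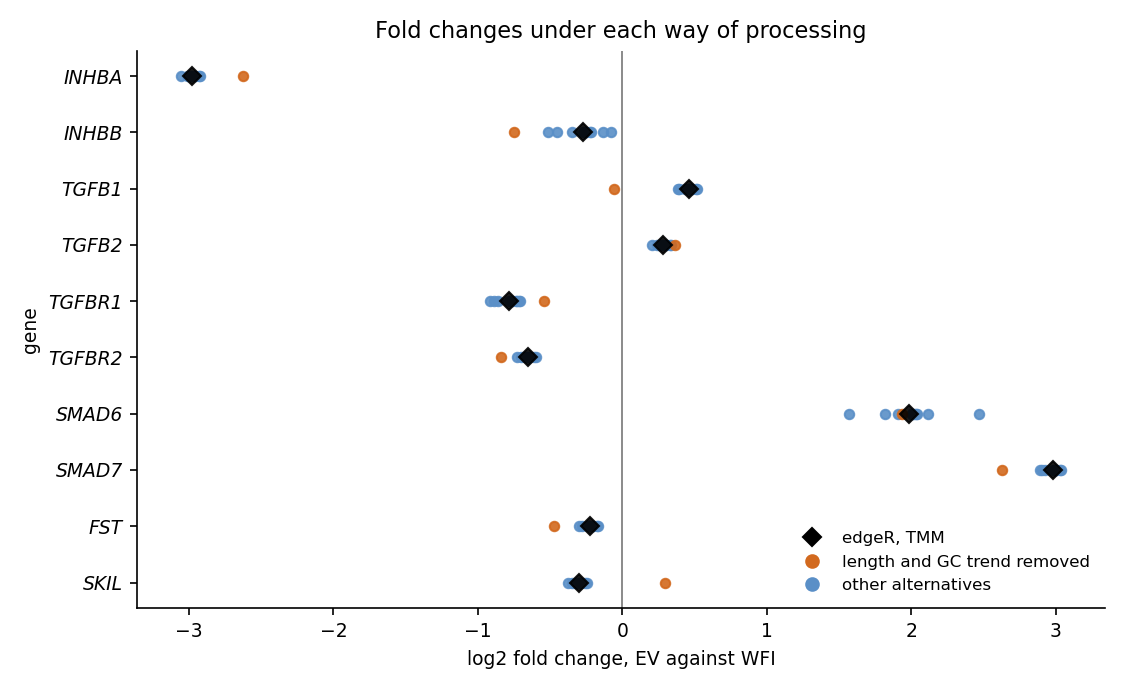
Log2 fold change of EV against WFI for the 10 genes with the edgeR and TMM fit (black diamonds), with a trend in length and GC content removed (orange) and under the other 10 alternatives (blue). INHBA runs from -3.05 to -2.63 and SMAD7 from 2.63 to 3.04, and the orange points of TGFB1 and SKIL lie across 0 from the others.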

How the data were processed

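The authors deposited whole-number counts per Ensembl gene for 4 samples, without normalization. The build was hg38, per the submitters' processing notes. The kit was directional, per the labels' protocols. For the aligner, counter, strand setting and annotation release: not given in the sources used here.

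Of 61860 identifiers, 61757 matched a symbol. Positions and lengths came from GENCODE 29 (same build) and promoters from RefSeq, with a window for all 10 genes. The fit across all genes used edgeR 4.0.16 (R 4.3.3): TMM scaling, filterByExpr, quasi-likelihood test, group as the only term, Benjamini-Hochberg adjustment, threshold 0.05. This left 17465 genes. An SE is the log2 fold change divided by the square root of F. Intervals cover counting error alone. The procedure was tested on simulated counts, and the outcome is not reported here. Replicate libraries were not duplicates: the chi-square of their counts was 2.25 (WFI) and 4.72 (EV) times its degrees of freedom.

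The genes and lists were chosen with earlier results of these data known. Named were the 10 genes, per list up to 4 called genes with the largest change (mean of at least 10 CPM, groups apart), and the 5 genes nearest INHBA. Genes outside this rule are marked in the text.

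The alternatives were a replicate block, a fit with DESeq2 1.42.0, upper quartile or RLE scaling, no filter beyond 1 count in any sample, a filter of 50 counts in 2 samples, each sample left out in turn, and removal of a spline trend in merged exon length and GC content (97.8% of tested genes had both).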

Additional observations from a re-analysis of the deposited data

How the results depend on the processing

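Over 11 alternatives, INHBA had log2 fold changes from -3.05 to -2.63, SMAD7 from 2.63 to 3.04, SMAD6 from 1.57 to 2.47, TGFBR2 from -0.84 to -0.60 and TGFBR1 from -0.91 to -0.54. In the wider lists CCN2 ran from 2.89 to 3.44, BAMBI from 2.63 to 3.44 and ID2 from 10.03 to 10.75. ACVR2B ran from -1.92 to -1.37 and INHBE from -2.48 to -1.89. Removing the trend in length and GC content, which also took the median of all genes from 0.02 to -0.13, reversed TGFB1 (-0.060), SKIL (0.29), SMAD4 (0.087) and SMAD2 (0.18, called higher). Under it 7 intracellular regulators were higher, 2 signalling SMADs lower and 3 higher, and 1 BMP target, ID1, was lower (-0.67). PMEPA1, a feedback inhibitor chosen after its values were seen, was at 0.23 (edgeR adjusted p = 0.0612) and at -0.037 with the trend removed, and passed with RLE scaling, upper quartile scaling, the filter of 50 counts and without EV replicate 2. ID1, at -0.00, was at 0.017 with DESeq2 and with RLE scaling, 0.054 with upper quartile scaling, 0.045 with the filter of 50 counts and -0.11 to 0.074 when each sample was left out, none of these called. The cause was not tested. With the filter of 50 counts, 2 extracellular genes were higher, as fewer could be tested, and leaving out each sample gave 2 to 5. The other list counts stayed within 1.5 times of those reported under each alternative. With a replicate block 5957 genes were higher and 5573 lower, against 6019 and 5509 without it. It changed the extracellular count of higher genes from 4 to 3 and no other list count. The labels do not pair the samples, and deviations of same-numbered samples correlated at 0.0159. Depth limits INHBB and TGFB2, whose ratios of EV to WFI had 95% counting intervals of 0.680 to 1.02 and 0.978 to 1.51.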
